A study of Mus musculus with 16 samples.

Results

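Immediate early genes are the genes that a cell transcribes within minutes of a stimulus, without first making new protein. Expression of 10 of them, Fos, Fosb, Jun, Junb, Jund, Egr1, Egr2, Atf3, Ier2 and Dusp1, was followed across lymph node macrophages of tumor-bearing mice. They were picked by symbol among the 55421 genes of the deposited count matrix, and all 10 had reads in all 8 libraries and passed the filter on low counts. C57B/6 male mice received 500000 MOC2 cells, a chemically induced squamous cell carcinoma line, in the skin of the flank, and nodes were taken 2 weeks later. Tumor-draining lymph nodes (tdLN) and non-draining nodes of the opposite side (ndLN) were compared within these mice, so every group comes from an animal with a tumor and none from a tumor-free mouse. Subcapsular sinus macrophages (SSM) were sorted as CD11b+ CD169+ CD11c- cells and medullary sinus macrophages (MSM) as CD11b+ CD169+ CD11c+ cells. Each of the 4 groups (SSM from ndLN, SSM from tdLN, MSM from ndLN, MSM from tdLN) has 2 libraries, and each library holds cells of 2 pooled mice, from 2 tdLN or 6 ndLN. The ndLN were inguinal, axillary and brachial nodes, while the tumor was placed near the inguinal node. Between nodes, an effect of node site cannot be told apart from an effect of drainage. Values are given as CPM, the reads of a gene scaled to the normalized size of its library, and a library is named by its group and its pool, 1 or 2.

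The products of these genes work in a short circuit. Mitogen-activated protein kinases, calcium and stress signals reach transcription factors already present in the cell, such as SRF with its ternary complex partners and CREB, which switch on Fos, Egr1 and their relatives. FOS proteins pair with JUN proteins to form AP-1, EGR proteins are zinc finger factors that bind GC-rich sites, ATF3 is a stress-induced member of the ATF/CREB family, and IER2 is a small nuclear protein. DUSP1 is a phosphatase that removes phosphate from the kinases and so closes the circuit. In macrophages the genes respond to microbial products, Fc receptor engagement, adhesion and growth factors, and they also respond to the handling of tissue, including enzymatic digestion at body temperature. All 4 groups were released from the nodes by the same digestion with collagenase IV at 37 °C before sorting, and undigested tissue was not analysed here.

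Of the 10 genes, 5 (Fos, Jun, Egr2, Atf3 and Dusp1) rose in SSMs from tdLN over SSMs from ndLN, and the 250 bases before their transcription start sites are printed here because members that move together are often compared by their promoters. They were read from the RefSeq promoter table on GRCm38.p6, 5′ to 3′ on the strand of the gene, and 8 of the 10 members had an entry there. Capitals mark the matches to the motifs searched on both strands, namely the TATA motif TATAAA, the cAMP response element (CRE) TGACGTCA, the AP-1 sites TGACTCA and TGAGTCA, the EGR sites GCGGGGGCG and GCGTGGGCG, and the CArG box, which SRF binds. The letters of the CRE contain neither AP-1 site.
Fos, chr12:85473640-85473889, plus strand: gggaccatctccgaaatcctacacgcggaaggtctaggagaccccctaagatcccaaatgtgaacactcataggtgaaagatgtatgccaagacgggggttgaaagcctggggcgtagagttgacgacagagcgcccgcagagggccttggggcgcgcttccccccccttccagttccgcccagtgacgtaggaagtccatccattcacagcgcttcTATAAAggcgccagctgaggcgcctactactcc
Jun, chr4:95052223-95052472, minus strand: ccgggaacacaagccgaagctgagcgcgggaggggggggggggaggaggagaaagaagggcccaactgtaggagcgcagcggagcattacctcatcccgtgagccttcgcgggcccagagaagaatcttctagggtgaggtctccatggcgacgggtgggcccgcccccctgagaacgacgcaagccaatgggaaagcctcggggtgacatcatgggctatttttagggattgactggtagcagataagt
Egr2, chr10:67537619-67537868, plus strand: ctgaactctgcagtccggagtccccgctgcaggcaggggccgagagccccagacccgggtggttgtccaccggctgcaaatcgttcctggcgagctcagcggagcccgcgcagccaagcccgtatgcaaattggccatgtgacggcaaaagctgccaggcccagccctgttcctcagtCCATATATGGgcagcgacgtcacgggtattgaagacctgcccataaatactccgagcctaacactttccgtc
Atf3, chr1:191183334-191183583, minus strand: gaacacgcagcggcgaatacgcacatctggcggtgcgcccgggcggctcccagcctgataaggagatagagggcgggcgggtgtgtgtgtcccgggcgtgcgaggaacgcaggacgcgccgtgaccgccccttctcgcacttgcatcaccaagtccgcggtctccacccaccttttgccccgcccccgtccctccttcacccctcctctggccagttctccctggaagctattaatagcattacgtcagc
Dusp1, chr17:26508473-26508722, minus strand: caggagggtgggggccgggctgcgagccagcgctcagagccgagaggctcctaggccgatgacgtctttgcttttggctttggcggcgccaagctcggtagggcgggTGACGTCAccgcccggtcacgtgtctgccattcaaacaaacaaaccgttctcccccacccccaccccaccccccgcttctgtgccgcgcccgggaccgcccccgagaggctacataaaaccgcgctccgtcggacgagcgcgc

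Among these windows, Fos held the TATA motif at -33 to -28 from the start site, Egr2 a CArG box at -72 to -63 and Dusp1 a CRE at -143 to -136. The windows of Jun and Atf3 held no match to the letters searched. Egr2 has 5 start sites in the table, and the printed window belongs to start site 3. The CArG letters were found before 4 of them, although the windows of start sites 3, 4 and 5 overlap and share the same match. Of the members that did not rise, Fosb held an EGR site at -50 to -42, and the windows of Junb and Jund held no match. Start sites in the promoter table can differ from the gene models used for counting. The Jund window, chr8:70697489-70697738, does not reach the counted gene, which begins at 70698949. The windows of Egr2, Atf3 and Dusp1 lie within the gene spans given below. Over all 32851 promoter windows of this length, a TATA motif was found in 12.4%, an AP-1 site in 4.46%, an EGR site in 3.06%, a CRE in 1.55% and a CArG box in 1.47%. A match describes letters and does not show binding.

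The libraries held 42972328 to 48130352 reads on genes, and a member had between 3025 and 232869 reads in a library, so counting error is small beside the spread between libraries. Mitochondrial reads took 0.237% to 0.681%. The sort label was checked against marker genes. Csf1r, the receptor that macrophages need to survive, had 559 to 1887 CPM in SSMs and 194 to 405 CPM in MSMs. Siglec1, which encodes the CD169 protein used for sorting, had 8.47 to 70.0 CPM in SSMs and 0.795 to 5.96 CPM in MSMs. Not all macrophage markers went this way. At the threshold used below, 4 of 10 were higher and 2 lower in SSMs in ndLN, and 7 higher and 0 lower in tdLN. Over all genes, 12.1% and 8.69% passed. In ndLN, Mertk had 0.129 and 0.465 CPM in SSMs and 3.82 and 2.70 CPM in MSMs, and Cd68 had 211 and 134 CPM against 385 and 326 CPM. Itgax, which encodes CD11c, had 63.6 to 149 CPM in SSMs and 316 to 418 CPM in MSMs. The libraries labelled MSM also had 630 to 752 CPM of Xcr1, a chemokine receptor that defines cross-presenting dendritic cells, against 14.2 to 33.6 CPM in SSMs. The names SSM and MSM therefore stand below for the sorted gates.

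Marker transcripts of cells other than macrophages were found in the SSM libraries, at different levels in the 2 kinds of node. The study lists some of them, among them Il22 and Fcer1a, as expressed by SSMs. By flow cytometry it found more FceR1a protein on SSMs than on MSMs. It also reported lower T and B cell signatures than in earlier array data. The summed level of 11 T cell markers was 2308 to 2535 CPM in SSMs from ndLN, 1018 to 1169.7 CPM in SSMs from tdLN and 492 to 824 CPM in MSMs, although the gate was CD3-. In MSMs most of this sum was Cd8a, with 357 to 605 CPM against 10.0 to 25.7 CPM in SSMs, while the T cell receptor subunit Cd3e had 2.14 to 16.3 CPM in MSMs and 75.0 to 151 CPM in SSMs. The 10 innate-like lymphoid markers summed to 1565 to 1965 CPM in SSMs from ndLN, 587 to 598 CPM in SSMs from tdLN and 31.0 to 62.7 CPM in MSMs. The 12 mast cell and basophil markers summed to 2199.6 to 3242 CPM in SSMs from ndLN, 419.9 to 869 CPM in SSMs from tdLN and 312 to 692 CPM in MSMs. In MSMs most of this sum was the receptor gene Kit, with 269 to 614 CPM, while the mast cell protease Cpa3 had 0.0256 to 0.33 CPM in MSMs and 36.1 to 562 CPM in SSMs. These 3 sums were lower in SSMs from tdLN than in SSMs from ndLN, although the basophil protease Mcpt8 rose there, from 1.60 and 3.92 CPM to 20.4 and 23.8 CPM (log2 difference 3.06, SE 0.38, adjusted p = 0.0047 by edgeR), while the 10 macrophage markers summed to 7964 to 11410 CPM in SSMs from ndLN and to 18457 to 26794 CPM in SSMs from tdLN. NK and cytotoxic markers summed to 1855 to 3104 CPM over the SSM libraries and 19.0 to 109.7 CPM in MSMs, and 8 dendritic cell markers to 350.0 to 434 CPM in SSMs and 2576 to 3118 CPM in MSMs. Neutrophil markers summed to 61.5 to 135 CPM in SSMs from ndLN and 252 to 445 CPM in SSMs from tdLN, while B cell markers stayed at 27.3 to 55.9 CPM and endothelial and stromal markers at 29.5 to 77.1 CPM in all groups. Of the 6 neutrophil markers, Csf3r rose in SSMs at the threshold used below and 5 did not pass, where 3.03% of all genes passed. Csf3r had 54.1 and 47.5 CPM in SSMs from ndLN and 231 and 155 CPM in SSMs from tdLN. S100a9 overlapped between these groups, with 3.02 and 46.1 CPM against 110 and 43.4 CPM. In sorted bulk samples, a change in the share of a cell type cannot be told apart from a change in RNA per cell, and the part of these cell types in the values of the 10 genes was not tested.

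**Figure D1:**
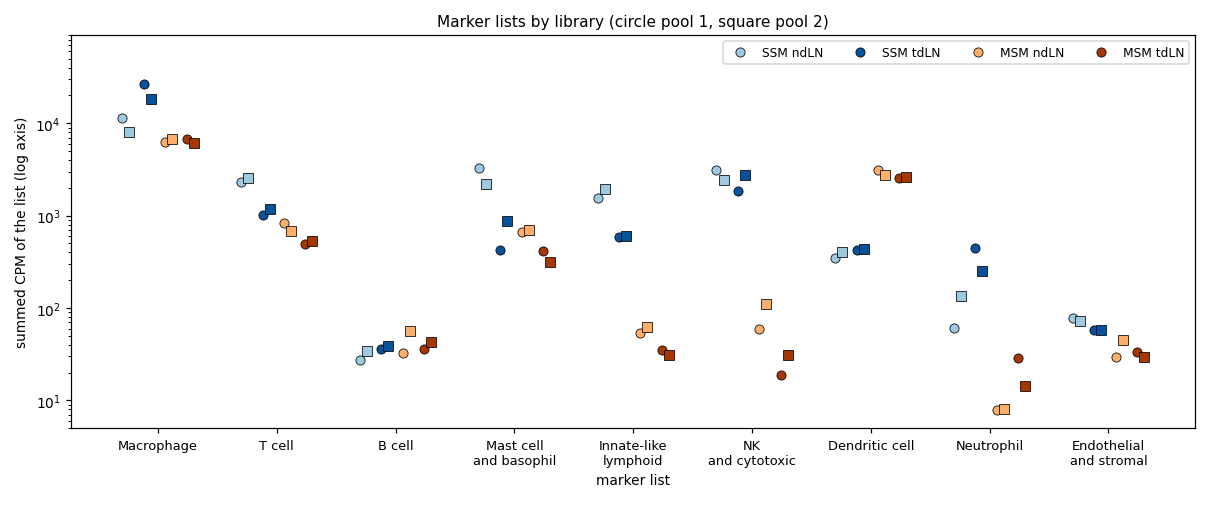
Summed CPM of 9 marker lists (log axis) in each of the 8 libraries, with circles for pool 1 and squares for pool 2 and colors for the 4 groups. T cell, mast cell and innate-like lymphoid sums are higher in SSMs from ndLN than in SSMs from tdLN, the macrophage sum is highest in SSMs from tdLN, and the dendritic cell sum is highest in MSMs.

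The 10 genes were abundant transcripts. Levels can be compared between genes only per length, and the mean over the 8 libraries ranged from 1374 CPM per kb of exon for Junb to 47.0 CPM per kb for Fosb. In between, in descending order, Fos had 961 CPM per kb, Dusp1 had 711, Atf3 had 358, Ier2 had 339.9, Jund had 190.1, Jun had 138, Egr1 had 83.1 and Egr2 had 71.2. The value of Jund per kb is uncertain, because 877 of its 1668 exonic bases are overlapped by the antisense gene Gm11175, which had 0 reads. How the counting treated reads in this stretch is not given, so the place of Jund in the order is uncertain too. Most neighbors in this order overlapped across libraries. Dusp1 and Atf3 were the only neighbors whose ranges did not overlap, with 538 to 992 CPM per kb against 212 to 452 CPM per kb. Fos lay above Dusp1, Ier2 above Jund, and Jun above Egr1 within each of the 8 libraries, although their ranges overlapped. Junb led in SSMs from both nodes and in MSMs from ndLN, and Fos led in MSMs from tdLN, with 1044.5 CPM per kb against 941 CPM per kb for Junb. Egr2 ranked 10 of 10 in SSMs from ndLN, with 19.8 CPM per kb, and 8 of 10 in MSMs from ndLN, with 90.8 CPM per kb.

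**Figure D2:**
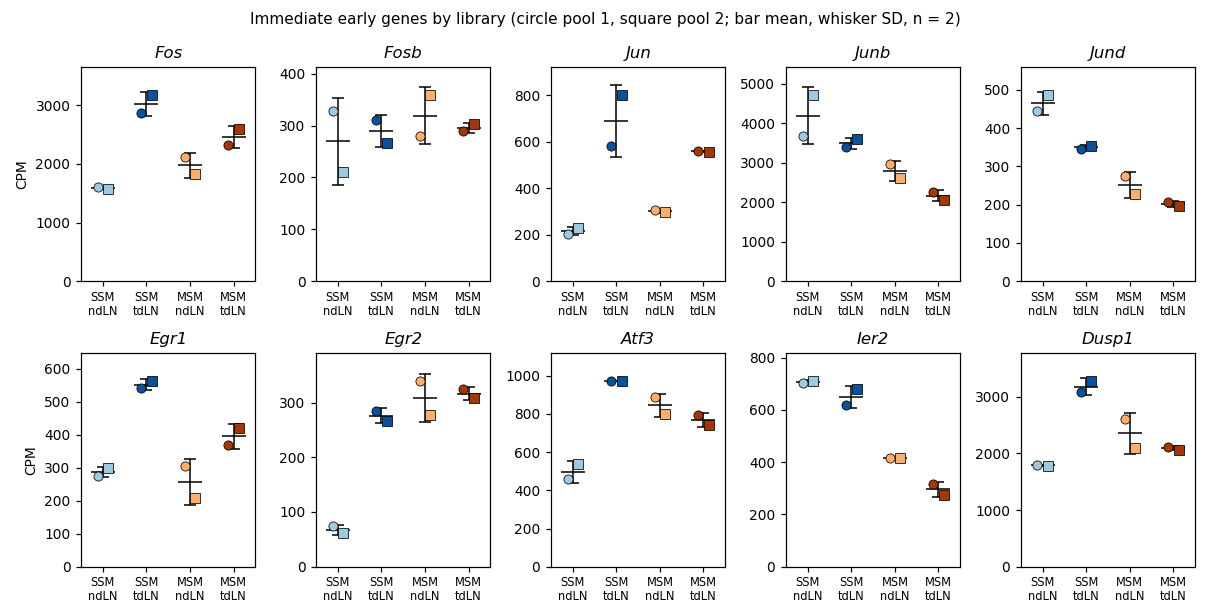
CPM of the 10 genes (linear axes from 0, a scale of its own for each gene) in the 8 libraries, with circles for pool 1, squares for pool 2, bars for the mean of a group and whiskers for its SD (n = 2). Fos, Jun and Egr1 lie higher in all 4 tdLN libraries than in all 4 ndLN libraries, Junb, Jund and Ier2 lie higher in all 4 SSM libraries than in all 4 MSM libraries, and Egr2 is lowest in the 2 libraries of SSMs from ndLN.

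The first question was whether the tumor's presence upstream of a node went with a different level of these genes in SSMs. Of the 10 members, 5 were higher in SSMs from tdLN than in SSMs from ndLN and 0 were lower, at an adjusted p-value below 0.01 and a mean normalized count above 100 per lane (quasi-likelihood F test of edgeR, p-values adjusted after Benjamini and Hochberg over 21085 genes, pool as a term in the model). Over all genes tested, 3.03% passed in either direction and 1.98% passed as higher. A mean above 100 per lane was reached by all 10 members and by 9996 of the 21085 genes. The other genes could not pass. The shares of all genes given at this rule throughout are therefore lower than shares among genes that could pass. The median log2 difference was 0.88 over the 10 members and -0.04 over all genes tested.

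Egr2, a zinc finger factor of macrophage and lymphocyte activation, differed most. It had 73.6 and 61.1 CPM in SSMs from ndLN, 286 and 266 CPM in SSMs from tdLN, 339.8 and 278 CPM in MSMs from ndLN, and 324 and 308 CPM in MSMs from tdLN, for pools 1 and 2. The libraries of SSMs from ndLN were the lowest and overlapped with no other group, and the libraries of the other 3 groups ran from 266 to 339.8 CPM. The rise in SSMs was 4.11-fold (log2 difference 2.04, SE 0.13, adjusted p = 0.0011 by edgeR). In MSMs the log2 difference was 0.04 (SE 0.12, adjusted p = 0.962). The gene lies at chr10:67535475-67542188 on the plus strand of GRCm38, and none of its transcript windows is shared with another gene.

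Jun, the founding JUN protein of AP-1, had 203 and 228 CPM in SSMs from ndLN, 581 and 801 CPM in SSMs from tdLN, 306 and 296 CPM in MSMs from ndLN, and 561 and 557 CPM in MSMs from tdLN. All 4 tdLN libraries were above all 4 ndLN libraries, and within tdLN the SSM libraries spread more than the MSM libraries. The rise in SSMs was 3.19-fold (log2 difference 1.67, SE 0.15, adjusted p = 0.00192 by edgeR). In MSMs Jun had the largest log2 difference of the 10 genes, 0.89 (SE 0.15), which did not pass (adjusted p = 0.0673). Jun is an intronless gene at chr4:95049034-95052222 on the minus strand, and 232 of its exonic bases are overlapped on the other strand by Junos, which had 77 reads over all libraries.

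Fos, the inducible partner of Jun in AP-1, had 1601 and 1578 CPM in SSMs from ndLN, 2873 and 3167 CPM in SSMs from tdLN, 2118 and 1828 CPM in MSMs from ndLN, and 2323 and 2591 CPM in MSMs from tdLN. The order of the groups was the same as for Jun, with every tdLN library above every ndLN library. The rise in SSMs was 1.90-fold (log2 difference 0.93, SE 0.12, adjusted p = 0.00457 by edgeR), and the log2 difference in MSMs was 0.32 (SE 0.12, adjusted p = 0.351). Fos lies at chr12:85473890-85477273 on the plus strand.

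Atf3, which restrains inflammatory genes in macrophages, had 458 and 539 CPM in SSMs from ndLN, 974 and 973 CPM in SSMs from tdLN, 889 and 802 CPM in MSMs from ndLN, and 794 and 743 CPM in MSMs from tdLN. SSMs held both the lowest and the highest levels, with MSMs of either node in between. The log2 difference in SSMs was 0.97 (SE 0.13, adjusted p = 0.00499 by edgeR) and in MSMs -0.14 (SE 0.13, adjusted p = 0.72). Atf3 lies at chr1:191170296-191218039 on the minus strand.

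Dusp1, the phosphatase of the list, followed the same order. It had 1799 and 1780 CPM in SSMs from ndLN, 3078 and 3284 CPM in SSMs from tdLN, 2612 and 2103 CPM in MSMs from ndLN, and 2118 and 2070.4 CPM in MSMs from tdLN. SSMs from tdLN were above all other libraries and SSMs from ndLN below all others. The log2 difference in SSMs was 0.83 (SE 0.12, adjusted p = 0.00668 by edgeR) and in MSMs -0.17 (SE 0.12, adjusted p = 0.627). Dusp1 lies at chr17:26505590-26562128 on the minus strand.

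Egr1, the EGR protein most used as a sign of recent stimulation, had 275 and 298 CPM in SSMs from ndLN, 541 and 564 CPM in SSMs from tdLN, 306 and 208 CPM in MSMs from ndLN, and 369 and 422 CPM in MSMs from tdLN. The tdLN libraries again lay above the ndLN libraries without overlap, but the ndLN libraries of MSMs were far apart. The log2 difference of 0.95 in SSMs had a larger SE, 0.19, and did not pass (adjusted p = 0.0221 by edgeR), and neither did the 0.63 in MSMs (SE 0.19, adjusted p = 0.26). All 4 tdLN libraries were above all 4 ndLN libraries for 3 of the 10 members, Fos, Jun and Egr1, against 5.58% of all genes tested that separated the nodes in either direction.

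The remaining members showed no rise. Fosb, a FOS family protein with a slower and longer induction, had 328 and 211 CPM in SSMs from ndLN, 311 and 267 CPM in SSMs from tdLN, 280.3 and 358 CPM in MSMs from ndLN, and 289 and 303 CPM in MSMs from tdLN. Its 4 groups overlapped, and its log2 difference in SSMs was 0.11 (SE 0.22, adjusted p = 0.833 by edgeR). The JUN proteins Junb and Jund and the nuclear protein Ier2 had log2 differences of -0.26, -0.41 and -0.12 in this comparison, and their adjusted p-values by edgeR were 0.315, 0.116 and 0.609. All 3 also had negative values in MSMs, between -0.31 and -0.49, and none of them passed there.

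The call in SSMs rested on few libraries. The log2 differences of the 5 genes kept their sign in every fit with 1 library left out. Of the 5 genes, 1 passed without the pool 1 library of SSMs from ndLN and 0 without the pool 2 library of that group or without either library of SSMs from tdLN. Leaving out a library of MSMs left 3 without either ndLN library and 2 without either tdLN library. Within pools as numbered here, the log2 differences of the 5 genes were 0.78 to 1.96 in pool 1 and 0.85 to 2.12 in pool 2, all above 0.

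**Figure D3:**
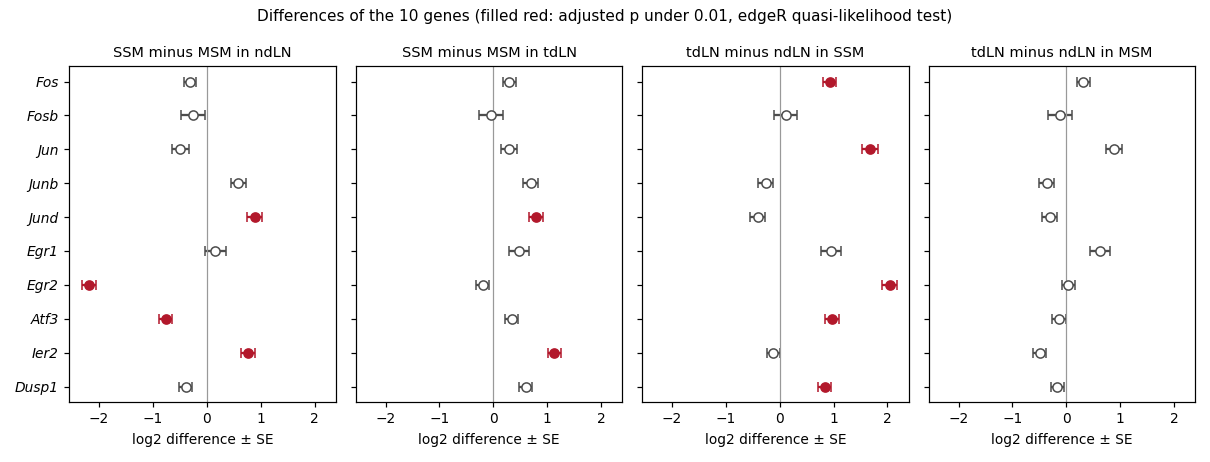
log2 differences (x axis) with their SE (bars) of the 10 genes in the 4 comparisons of 2 groups, from edgeR's fit of 8 libraries, with filled red points for genes called at an adjusted p-value below 0.01. In SSMs, 5 genes are called between tdLN and ndLN, with Egr2 at 2.04 and Jun at 1.67, and 0 in MSMs, while Jund and Ier2 are called as higher in SSMs than in MSMs in both nodes.

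In MSMs, the same comparison of nodes called 0 of the 10 members by edgeR's quasi-likelihood test, where 0.0237% of all genes passed. At an unadjusted p-value below 0.05 there were 5, namely Fos, Jun, Junb, Egr1 and Ier2, and a DESeq2 Wald test called 2, Jun and Ier2, where 11.9% and 2.39% of all genes passed by these rules. By edgeR, Fos, Jun and Egr1 had positive log2 differences in MSMs, and Junb and Ier2 had negative ones. The median log2 difference was -0.13 over the members and 0.01 over all genes tested. The test of the difference between the subsets (the interaction of subset and node) called 0 of the 10 members by edgeR, where 0.0379% of all genes passed, with 5 at an unadjusted p-value below 0.05 and 3 by DESeq2, against 12.3% and 3.35% of all genes. Egr2 was nearest, with a difference of 2.00 on the log2 scale between the change in SSMs and the change in MSMs (SE 0.18, adjusted p = 0.0114), followed by Atf3 with 1.10 (SE 0.18, adjusted p = 0.0402) and Dusp1 with 1.00 (SE 0.17, adjusted p = 0.0437). These are the 3 genes that DESeq2 called. For Jun and Fos the interaction was 0.78 (SE 0.21) and 0.61 (SE 0.17), with adjusted p-values of 0.164 and 0.166 by edgeR, so a change of these AP-1 genes particular to SSMs was not shown. The average of the node effect over both subsets called 3 members, Jun (log2 difference 1.28), Egr2 (1.04) and Fos (0.62), all higher in tdLN, where 1.97% of all genes passed in either direction and 1.23% passed as higher. With 1 library left out, 0 of these 3 passed, except without the pool 1 library of SSMs from ndLN, when 2 passed.

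The second question was which of the genes separated SSMs from MSMs. In ndLN, 4 of the 10 members differed, 2 higher and 2 lower in SSMs, where 12.1% of all genes passed in either direction, 6.01% as higher and 6.06% as lower. The 12.1% were 2545 genes, out of 9996 that could pass. Egr2 was 4.58-fold lower in SSMs (log2 difference -2.19, SE 0.13, adjusted p = 4.09e-05 by edgeR) and Atf3 1.70-fold lower (log2 difference -0.76, SE 0.13, adjusted p = 0.00404). Jund and Ier2 were higher in SSMs, as described next. The median log2 difference was -0.29 over the members and 0.09 over all genes tested. SSMs from ndLN also served as the reference for the node comparison above, so a low value of Egr2 or Atf3 in these libraries enters both comparisons.

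Jund, a JUN protein expressed in most resting cells, had 444 and 486 CPM in SSMs from ndLN, 346 and 355 CPM in SSMs from tdLN, 275 and 227 CPM in MSMs from ndLN, and 208 and 197 CPM in MSMs from tdLN. Each SSM library was above each MSM library. The log2 difference between SSMs and MSMs was 0.89 in ndLN (SE 0.14, adjusted p = 0.00281 by edgeR) and 0.79 in tdLN (SE 0.14, adjusted p = 0.00657). Jund lies at chr8:70698949-70700616 on the plus strand, and 48.3% of its windows of 50 bases are shared with the antisense gene Gm11175, which had 0 reads. The library kit does not mark strand, so reads of the pair cannot be told apart.

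Ier2 had 704 and 712 CPM in SSMs from ndLN, 620.4 and 679 CPM in SSMs from tdLN, 416 and 416 CPM in MSMs from ndLN, and 317 and 274 CPM in MSMs from tdLN. The subsets did not overlap, and the pools of a group lay close together in ndLN. The log2 difference between SSMs and MSMs was 0.77 in ndLN (SE 0.12, adjusted p = 0.00346 by edgeR) and 1.14 in tdLN (SE 0.12, adjusted p = 8.11e-04). Ier2 is an intronless gene at chr8:84661331-84662852 on the minus strand.

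Junb, the JUN protein most abundant here, had 3683 and 4707 CPM in SSMs from ndLN, 3400.5 and 3597 CPM in SSMs from tdLN, 2965 and 2612 CPM in MSMs from ndLN, and 2259 and 2069 CPM in MSMs from tdLN. The 4 SSM libraries were all above the 4 MSM libraries, as they were for Jund and Ier2, against 26.6% of all genes tested that separated the subsets in either direction. Its log2 difference was 0.59 in ndLN (SE 0.14, adjusted p = 0.0197 by edgeR) and 0.69 in tdLN (SE 0.14, adjusted p = 0.0131), and it passed only in the average over both nodes (log2 difference 0.64, SE 0.10, adjusted p = 0.00211). Junb lies at chr8:84974484-84978718 on the minus strand, and 5.77% of its windows are shared with Prdx2 on the other strand, a gene with 58683 reads.

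In tdLN, 2 of the 10 members differed between the subsets, Jund and Ier2, both higher in SSMs, where 8.69% of all genes passed in either direction and 5.16% as higher. The 8.69% were 1833 genes, out of 9996 that could pass. In a model without pool as a block, 4 members passed, the additional ones being Junb and Dusp1. With pool in the model, Dusp1 had a log2 difference of 0.60 (SE 0.12, adjusted p = 0.0114 by edgeR) in tdLN and -0.39 (SE 0.12, adjusted p = 0.0483) in ndLN, so its values changed sign between nodes. Egr2 had a log2 difference of -0.20 (SE 0.12, adjusted p = 0.363) in tdLN. The median log2 difference was 0.41 over the members and 0.02 over all genes tested. Averaged over both nodes, 4 members passed, with Junb, Jund and Ier2 higher and Egr2 lower in SSMs, where 16.0% of all genes passed in either direction, 8.04% as higher and 8.01% as lower. The 16.0% were 3384 genes, again out of the 9996.

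These counts also moved with single libraries. In ndLN, Egr2 passed whichever of the 8 libraries was left out, but the number of members called fell from 4 to 1 without either SSM library from tdLN or either MSM library from ndLN, to 2 without the pool 2 library of SSMs from ndLN and to 3 without the pool 1 library of that group or either MSM library from tdLN. In tdLN, 0 passed without either SSM library from tdLN or without the pool 2 library of MSMs from tdLN, 1 passed without the pool 1 library of that group, and 3 passed without either SSM library from ndLN. The average over both nodes kept 3 or 4 members in each of these fits.

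Across the 8 libraries, the 10 genes did not vary as a single block. On log2(CPM + 1), Fos, Jun, Egr1, Egr2, Atf3 and Dusp1 had positive correlations among themselves in all 15 pairs, with Pearson r between 0.35 and 0.96, and Junb, Jund and Ier2 correlated with r between 0.95 and 0.97 in all 3 pairs. Between these sets, r lay between -0.81 and 0.15 over 18 pairs. The lowest value belonged to Egr2 and Jund, and the highest to Ier2 and Dusp1. Fosb had r between -0.55 and 0.42 with the other members. By the study's description, the SSM and MSM libraries of a pool come from the same nodes. The libraries of a group share its sort, and the sets were named after the values were seen, so these values describe the libraries and were not tested.

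**Figure D4:**
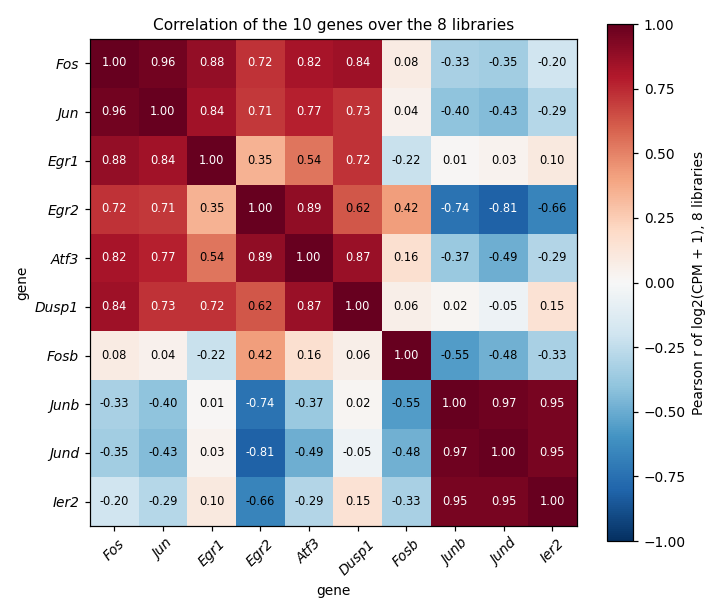
Pearson r of log2(CPM + 1) over the 8 libraries for each pair of the 10 genes, from blue (-1) to red (1), with the value in each cell. Fos, Jun, Egr1, Egr2, Atf3 and Dusp1 form a block of positive values, Junb, Jund and Ier2 form another with r of 0.95 or more, and Fosb belongs to neither.

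The genes outside the list whose pattern over the 8 libraries was most like a member's, among genes with a mean of at least 10 CPM, differed between the sets. Ier2 was most like Prkcq (r = 0.997), Atp1b1 (r = 0.997) and Cd3g (r = 0.997), of which Prkcq and Cd3g encode a kinase and a receptor subunit of T cells. Cd3g itself had 199 and 241 CPM in SSMs from ndLN, 122 and 136 CPM in SSMs from tdLN and 2.40 to 21.7 CPM in MSMs. Jund was most like Fbxl6, Lbr and Hacd3 (r between 0.994 and 0.996), and Junb was most like Rexo2, Hacd3 and Cdkn2aip (r between 0.984 and 0.991). Egr2 was most like Cnpy3 (r = 0.997), Mapk7 (r = 0.995) and Pld4 (r = 0.994). Fos was most like Mthfsl (r = 0.975), Jun like Ciao2a (r = 0.98), Atf3 like Pex2 (r = 0.975), Dusp1 like Fam50a (r = 0.989) and Fosb like Asxl2 (r = 0.945). These values describe the 8 libraries and were not tested.

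Other genes of the same response were read from 6 lists. In SSMs between nodes, 3.03% of all genes tested passed in either direction. Of 34 further immediate early genes, 4 rose and 0 fell in SSMs from tdLN over ndLN. They were Ier3, a survival gene (log2 difference 1.67, SE 0.22), Zfp36, which encodes an RNA-binding protein that destabilizes cytokine mRNA (1.45, SE 0.13), Mcl1, which encodes an anti-apoptotic protein (1.03, SE 0.10), and Klf6, a zinc finger factor (0.70, SE 0.11), with adjusted p-values between 0.00175 and 0.00858 by edgeR. Zfp36 had 1461 and 1108 CPM in SSMs from ndLN, 3496 and 3457 CPM in SSMs from tdLN and 2337 to 2962 CPM in MSMs. The order of its groups was that of Dusp1. The list as a whole had a median log2 difference of 0.06, against 0.88 for the 10 members and -0.04 for all genes tested.

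Between the subsets, 5 of these 34 genes were higher and 6 lower in SSMs in ndLN, and 9 were higher and 2 lower in tdLN. Over all genes tested, 12.1% passed in ndLN and 8.69% in tdLN in either direction. Egr3, an EGR relative, was 7.32-fold lower in SSMs than in MSMs in ndLN and 9.83-fold lower in tdLN (adjusted p = 0.00272 in both by edgeR). It had 5.18 to 22.8 CPM in the SSM libraries and 63.3 to 129 CPM in the MSM libraries, and its libraries of SSMs from tdLN, with 5.18 and 11.3 CPM, overlapped those from ndLN, with 22.8 and 10.1 CPM. The orphan nuclear receptor Nr4a2 was lower in SSMs in ndLN (log2 difference -1.67, SE 0.11, adjusted p = 6.69e-05), and Nfkbiz and Tnfaip3, both NF-kappaB targets that modulate the pathway, were higher in SSMs in ndLN by log2 differences of 2.00 and 1.83 and in tdLN by 1.47 and 1.48.

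The 20 AP-1 and ATF family partners had a median log2 difference of 0.23 between nodes in SSMs, against -0.04 for all genes tested. Between the subsets, 4 were higher and 2 lower in SSMs in ndLN, and 6 were higher and 2 lower in tdLN. The shares of all genes tested that passed were 12.1% in ndLN and 8.69% in tdLN. Those higher in SSMs in both nodes included Maf (log2 difference 4.02 in ndLN and 4.05 in tdLN) and Cebpb (2.88 and 3.27). Batf3, a partner of JUN proteins in dendritic cells, was lower in SSMs in tdLN (log2 difference -1.89, SE 0.18). It was also lower in the average over both nodes (-1.765, SE 0.13). In ndLN it had 17.2 and 21.7 CPM in SSMs and 60.6 and 59.9 CPM in MSMs.

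Beside the 3.03% of all genes that passed in SSMs between nodes, 2 further lists were read. Of 20 upstream kinases and factors of the SRF and CREB axis, 1 fell in SSMs from tdLN and 0 rose. It was Crem, a CREB family modulator, with a log2 difference of -1.34 (SE 0.12, adjusted p = 0.00187 by edgeR), and it had 1394 and 1652 CPM in SSMs from ndLN, 594 and 610.15 CPM in SSMs from tdLN and 279 to 498 CPM in MSMs. Its direction was opposite to that of the 5 members that rose. Of 15 other MAPK phosphatases and EGR corepressors, 0 were called between nodes in SSMs, with a median log2 difference of -0.27, while 5 were higher in SSMs than in MSMs in each node, led by Spry2, an inhibitor of receptor tyrosine kinase signaling (log2 difference 4.82 in ndLN and 5.71 in tdLN). Between the subsets, 12.1% of all genes passed in ndLN and 8.69% in tdLN.

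Some heat shock genes and early cytokine genes also rose in SSMs from tdLN. Of 15 heat shock genes, which encode chaperones induced by unfolded protein and warmth, 8 rose, 0 fell and 7 did not pass in SSMs between nodes, with a median log2 difference of 1.06. In this comparison 3.03% of all genes passed in either direction and 1.98% as higher. Hspa1a had 170.3 and 174 CPM in SSMs from ndLN, 998 and 1216 CPM in SSMs from tdLN, 655 and 509 CPM in MSMs from ndLN, and 1299 and 1388 CPM in MSMs from tdLN, a 6.43-fold rise in SSMs (log2 difference 2.68, SE 0.17, adjusted p = 0.0011 by edgeR). Its tdLN libraries were above its ndLN libraries in both subsets. Hspa1b (log2 difference 2.63) and the co-chaperones Bag3 (1.73) and Dnajb1 (1.47) were the next in size. Hspa1a and Hspa1b are nearly identical copies, and the counting may split their reads in an uncertain way. In MSMs 0 heat shock genes passed by edgeR, with a median log2 difference of 0.54, 10 at an unadjusted p-value below 0.05 and 3 by DESeq2, where 11.9% and 2.39% of all genes passed. In ndLN 5 heat shock genes were lower and 2 higher in SSMs than in MSMs, where 12.1% of all genes passed in either direction.

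Of 10 early cytokine genes, 2 rose in SSMs from tdLN, Il1b (log2 difference 2.06, SE 0.19, adjusted p = 0.00192 by edgeR) and the neutrophil chemokine Cxcl2 (1.16, SE 0.17, adjusted p = 0.00805), and the median of the list was 1.14. Il1b had 1979.5 and 1111 CPM in SSMs from ndLN, 6856 and 5728 CPM in SSMs from tdLN, 3602 and 3210.5 CPM in MSMs from ndLN, and 3874 and 3816 CPM in MSMs from tdLN. As with Egr2 and Atf3, SSMs from ndLN were the lowest group. Over the 6 lists together, 16 of 114 genes were called in SSMs between nodes, 15 of them higher, while 0 of 114 were called in MSMs by edgeR, with 42 at an unadjusted p-value below 0.05 and 17 by DESeq2, again beside 11.9% and 2.39% of all genes. By edgeR, 3.03% of all genes passed between nodes in SSMs and 0.0237% in MSMs.

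**Figure D5:**
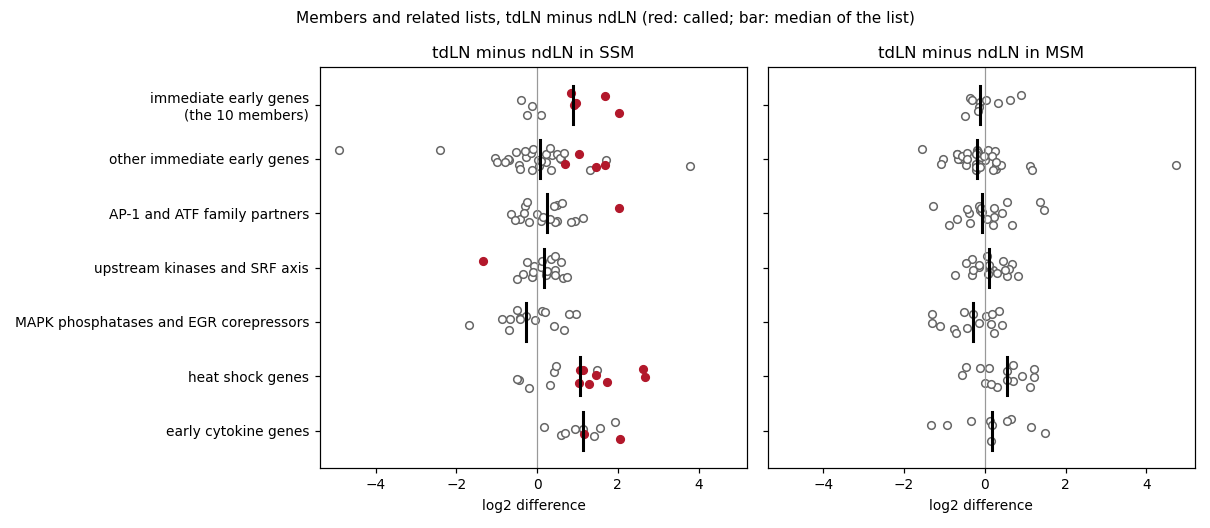
log2 differences between tdLN and ndLN of the 10 members and of 6 related lists in SSMs (left) and MSMs (right), with a point for each gene, red for genes called by edgeR and a black bar for the median of each list. In SSMs the medians of the members, the heat shock genes and the early cytokine genes are 0.88, 1.06 and 1.14, the other lists lie between -0.27 and 0.23, and no gene is called in MSMs.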

How the data were processed

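RNA of sorted SSMs and MSMs was sequenced, and the authors deposited raw counts of reads per gene for 16 samples, which are 8 libraries on 2 lanes each. Reads of SMART-Seq v4 libraries, which do not mark strand, were aligned to GRCm38 (mm10) with STAR, and the submitters' processing notes name STAR 2.5.3a and Trimmomatic 0.36. The strand setting of the counting is not given in the sources used here. Of the 55423 rows, 2 are added sequences with 6 reads in all and were left out.

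The 2 lanes of each library agreed within sampling noise (chi-square per degree of freedom 0.955 to 1.02, against 29.3 to 53.1 between libraries of a group on the same lane) and were summed, so n = 2 libraries per group. The 21085 genes with 10 or more counts in total and reads in 2 or more samples were kept. CPM were computed with TMM factors of 0.902 to 1.15. All 8 libraries were fitted with group and pool in edgeR 4.0.16 (R 4.3.3), 7 contrasts were tested by its quasi-likelihood test with Benjamini-Hochberg adjustment over all genes, and a gene was called at an adjusted p-value below 0.01 and a mean normalized count above 100 per lane. The SE of a log2 difference was derived from this test, as its absolute value divided by the square root of the F statistic. The pairing comes from the study's description, in which a pool gives both subsets from both nodes. That description counts more pools than the sample labels number. The label of 1 SSM library from tdLN carries no pool number and was taken as pool 1, since pool 2 of that group is labelled. Deviations of same-numbered libraries from their group means correlated across 10000 genes by -0.2 to 0.152, so the counts themselves did not show the pairing. In simulated counts with 200 genes changed 4-fold in SSMs between nodes, 173 of 21085 genes were called, 2 of them falsely, and 1 was called when no gene was changed. The counts were drawn from the fitted model itself, without pool effects. The simulation therefore does not show how often smaller changes, such as those of Fos, Atf3 and Dusp1, are found.

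All 10 members are named. From each other list, the genes named are at most the 4 called with the largest absolute log2 difference in a comparison, and the genes most like a member are the 3 with the highest Pearson r. Some genes that meet these rules are not reported here. Marker genes and list genes named with values beyond this rule were chosen after their values were seen. The members and lists were chosen with earlier results of these data known. Gene models came from GENCODE M21 and promoters from RefSeq. Alternatives were the model without pool, DESeq2 1.42.0, its size factors, other filters and thresholds, a Holm adjustment as the study states, each lane alone and each library left out.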

Additional observations from a re-analysis of the deposited data

How the results depend on the processing

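The 18 calls of a member (a gene in a comparison) were recomputed under 17 alternatives each. Of these 306 values, 0 changed sign, 208 kept the call and 98 lost it. The call was lost 17 times under the Holm adjustment, where Egr2 between SSMs and MSMs in ndLN was the exception, and 7 to 14 times with a given library left out, and 0 times under the other 8 alternatives. Fits with 7 libraries have fewer residual degrees of freedom, and the lone library of a group is assumed to vary like the others.

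The number of members called, 4 between SSMs and MSMs in ndLN, was 1 under Holm and 1 to 3 with a library left out. In tdLN it was 2, and became 4 without pool as a block, 4 by DESeq2, 4 at an adjusted p-value below 0.05, 0 under Holm and 0 to 3 with a library left out. Between nodes in SSMs it was 5, and became 0 under Holm and 0 to 3 with a library left out. Between nodes in MSMs it was 0, and 2 by DESeq2. For the interaction it was 0, and became 3 by DESeq2, 3 at the threshold of 0.05, and 1 under filterByExpr, on lane 3 alone or on lane 4 alone, each time Egr2. Over both nodes it was 4, and 0 under Holm. Over both subsets it was 3, and became 7 by DESeq2, 5 at the threshold of 0.05, 0 under Holm and 0 to 2 with a library left out. The 7 by DESeq2 included Ier2 and Jund, whose log2 differences by edgeR were negative, -0.31 and -0.36. Leaving out the pairing by pool changed no other count of members by more than 1.5 times.

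Counts over all genes moved as well. They were 2545 in ndLN (207 under Holm to 3886 at 0.05), 1833 in tdLN (108 under Holm to 3026 by DESeq2), 639 between nodes in SSMs (2 without the pool 2 library of SSMs from tdLN to 1973 by DESeq2), 5 in MSMs (0 to 503 by DESeq2), 8 for the interaction (0 to 706 by DESeq2), 3384 over both nodes (405 under Holm to 4723 at 0.05) and 416 over both subsets (3 without the pool 2 library of MSMs from tdLN to 1855 by DESeq2). DESeq2's size factors shifted the median of all genes by at most 0.06 on the log2 scale. With 3025 or more reads per member and library, n = 2 libraries per group and not depth set the precision.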
